A study of Mus musculus with 8 samples.

Results

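Across 8 Affymetrix gene arrays of NMuMG, an epithelial cell line from mouse mammary gland, 8 genes grouped as genes of the 2-cell stage of the mouse embryo were described. Their expression in embryos was not measured here. Zfp352, Tmem92, Spopfm2, Usp17ld, Tcstv3, Ubtfl1, Pramel20 and Gm7982 were chosen by their measured values, because they were lower on arrays of cells with the satellite vector than on arrays of cells with the control vector. They were 8 of 19937 genes with a probeset of 1 symbol, and 17 of the 34760 probesets of the array. Of these 17 probesets, 14 listed 1 gene symbol and 3 listed several, and all 17 were analysed without a filter on low values.

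The groups were Major cells (NMuMG with a stable vector that carries major satellite, the repeat found in tandem at mouse pericentromeres) after 8 h of TGFbeta, Major cells untreated (0 h), Control cells (NMuMG with a stable control vector) after 8 h of TGFbeta, and Control cells untreated. Each group had 2 arrays of total RNA, and all 4 groups shared the parental line and a stable transfection. The number of clones behind each line was not given in the sources used here. Each array carried 1 of 2 codes shared by 1 array of every group, given here as replicate number 1 or 2. Whether replicates came from separate cultures was not given, and the p-values therefore cover just the spread among these 8 arrays, which may be technical. The deposited values were RMA (robust multi-array average) log2 intensities per probeset. Array medians were 7.72 to 7.76 in number 1 and 7.88 to 7.92 in number 2. Among the epithelial markers, the keratin gene Krt8 was at 14.19 to 14.42 and the E-cadherin gene Cdh1 at 12.72 to 13.16 on the 8 arrays, whereas Epcam (6.53 to 7.16), Esrp1 (5.90 to 6.28), Grhl2 (6.09 to 6.34) and Cldn7 (6.70 to 7.03) stayed below every array's median. No detection call was used, so it was not determined whether any of these probesets, or any of the 8 genes in Major cells, was at background.

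The 2-cell stage is when the mouse embryo first transcribes its own genome on a large scale. The genes of that burst include the Zscan4 family, endogenous retroviruses of the MERVL type, and several young multi-copy families such as Pramel, Usp17l, Tdpoz and Tcstv. In the embryo and in rare embryonic stem cells that pass through a similar state, many of them are activated by the homeobox factor Dux, and they are silenced by chromatin repressors afterwards. Of the 8 genes, Zfp352 encodes a zinc finger protein and Ubtfl1 an HMG-box protein related to the nucleolar factor Ubtf. Spopfm2 belongs to the family of the ubiquitin ligase adaptor Spop, and Usp17ld is a deubiquitinase. Pramel20 is a leucine-rich protein of the PRAME-like family. Tcstv3 is named for its variable 2-cell transcripts, Tmem92 is a transmembrane protein, and Gm7982 is a predicted gene.

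Because the 8 genes share the difference they were chosen for, promoters are shown for the 4 that held at least 1 of the motifs searched. Each is 300 bases from RefSeq on GRCm38.p6, 250 before and 50 after the gene's start, and 5 of the 8 genes had an entry. Capitals mark matches on either strand to TAATCC (the core bound by homeobox factors of the Otx and Obox kind), GATTNAATC (the paired half-sites of Dux) and TATAAA (the TATA box). No base was shared between matches of different motifs.
Zfp352, chr4:90218570-90218869, plus strand: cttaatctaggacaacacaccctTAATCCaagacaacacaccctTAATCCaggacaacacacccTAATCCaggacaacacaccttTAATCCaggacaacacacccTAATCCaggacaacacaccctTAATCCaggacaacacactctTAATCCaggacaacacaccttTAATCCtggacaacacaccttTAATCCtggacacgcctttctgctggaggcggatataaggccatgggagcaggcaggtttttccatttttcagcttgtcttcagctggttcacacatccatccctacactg
Spopfm2, chr3:94178144-94178443, minus strand: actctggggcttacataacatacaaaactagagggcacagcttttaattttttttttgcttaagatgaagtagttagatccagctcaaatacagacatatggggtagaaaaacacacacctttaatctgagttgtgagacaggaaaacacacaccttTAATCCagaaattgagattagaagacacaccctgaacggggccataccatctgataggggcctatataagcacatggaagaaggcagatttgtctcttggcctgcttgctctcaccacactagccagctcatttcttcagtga
Pramel20, chr4:143567217-143567516, plus strand: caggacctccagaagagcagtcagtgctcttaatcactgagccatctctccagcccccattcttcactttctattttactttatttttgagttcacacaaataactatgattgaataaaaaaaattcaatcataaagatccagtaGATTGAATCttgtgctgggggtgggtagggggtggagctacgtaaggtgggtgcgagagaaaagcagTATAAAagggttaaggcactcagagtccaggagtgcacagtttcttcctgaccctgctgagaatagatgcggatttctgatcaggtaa
Usp17ld, chr7:103252456-103252755, minus strand: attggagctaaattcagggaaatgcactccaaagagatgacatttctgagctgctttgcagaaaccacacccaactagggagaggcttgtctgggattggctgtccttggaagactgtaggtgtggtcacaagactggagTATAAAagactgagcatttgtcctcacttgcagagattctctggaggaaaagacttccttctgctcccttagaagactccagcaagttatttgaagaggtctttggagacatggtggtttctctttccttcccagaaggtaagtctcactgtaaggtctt

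The Zfp352 promoter held 9 copies of TAATCC, set in a short tandem repeat. That was the highest number in any of 32851 promoters of the same length, of which 7.06% held the motif at least once and 8 (0.0244%) held 3 or more copies. The Spopfm2 promoter held 1 copy. GATTNAATC, found in 0.268% of promoters, occurred once in that of Pramel20. TATAAA, found in 13.6%, occurred once in those of Pramel20 and Usp17ld. Its first base was at -38 from the listed start of Pramel20 and at -110 from that of Usp17ld. Whether either match works as a TATA box was not tested. The Ubtfl1 promoter (chr9:18404168-18404467, plus strand) held none of these letters. Tmem92, Tcstv3 and Gm7982 are named only. These matches describe the letters of the windows and were not set against binding data.

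All 17 probesets of the 8 genes were lower in Major than in Control cells in each of the 4 matched pairs of arrays, with TGFbeta and untreated, in both replicate numbers. Their mean differences on the log2 scale ran from -2.91 to -0.30, with a median of -1.77, against 0.001 over all 34760 probesets. In bulk RNA, fewer cells that express these genes and less RNA per cell cannot be told apart. Within each number, both Major arrays were below both Control arrays for 17 of 17 probesets (2.09% of all probesets). For 13 of 17, all 4 Major arrays were below all 4 Control arrays (0.572% of all probesets), and 13 of 17 differed by -1 or less (0.181%, or 63 probesets). Since the genes were chosen for this difference, these counts describe the choice and carry no test. Means below are over 4 arrays of a line ± SD, the differences are Major minus Control, and the folds are those of the RMA intensities.

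**Figure D1:**
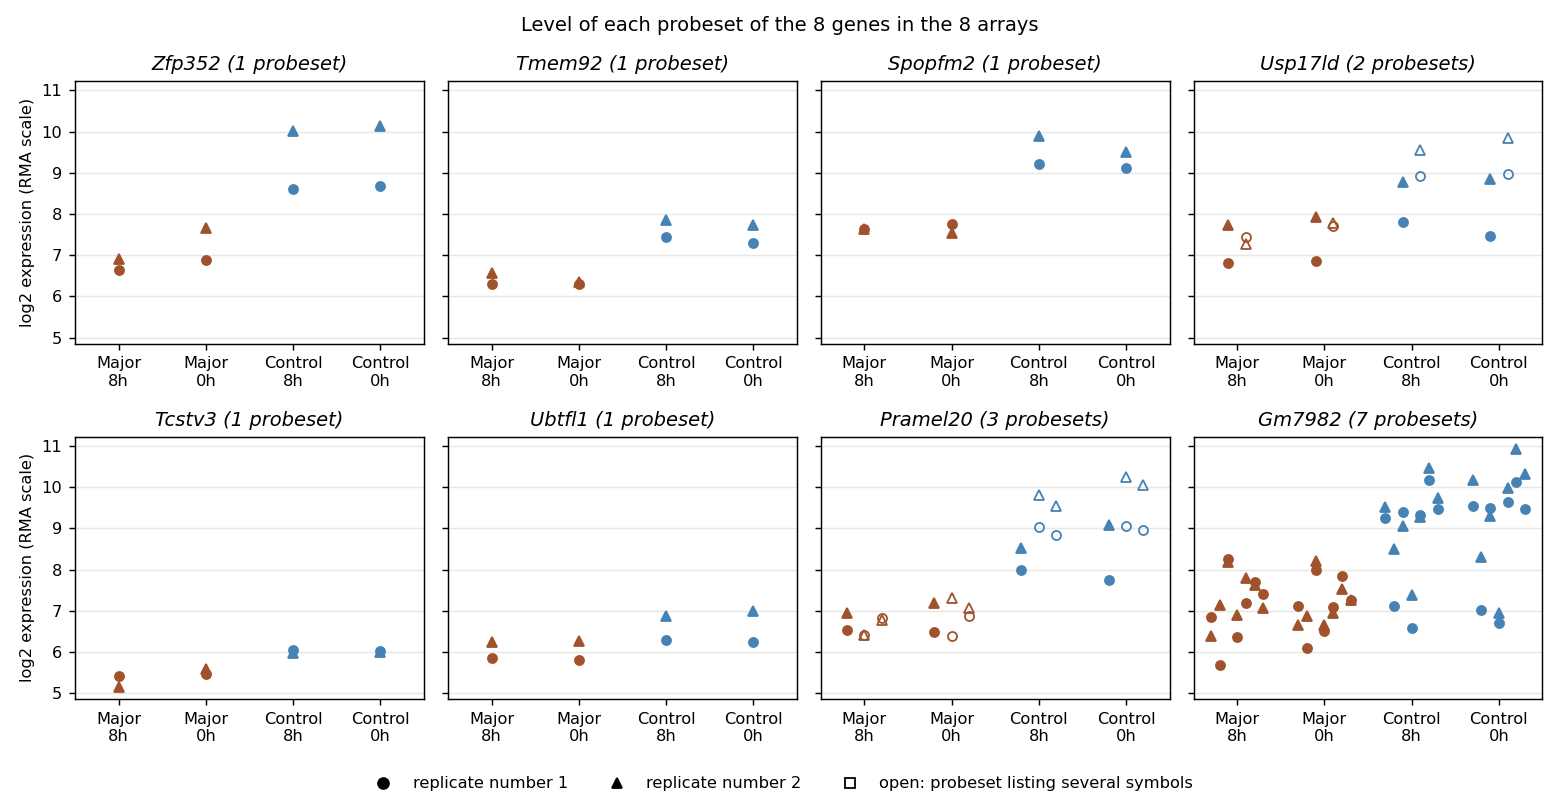
Log2 level (vertical axis) of each of the 17 probesets of the 8 genes on the 8 arrays, with Major arrays left of Control arrays and the 2 replicate numbers as separate symbols. Genes with several probesets have theirs side by side, open where several symbols are listed. Major points lie below the Control points of the same number for every probeset, and for 13 of 17 all 4 Major points lie below all 4 Control points.

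Zfp352 (probeset 10505914) was at 6.64 and 6.90 on the Major arrays with TGFbeta of numbers 1 and 2, and at 6.88 and 7.65 on the untreated Major arrays. On Control arrays it was at 8.62 and 10.02 with TGFbeta and at 8.67 and 10.13 untreated. The lowest Control array was thus above the highest Major array, and the Control arrays of number 2 were far above those of number 1. Zfp352 averaged 7.02 ± 0.44 in Major and 9.36 ± 0.83 in Control cells (SD, n = 4 each), a difference of -2.34, or 5.08-fold lower in Major.

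Ubtfl1 (10583359), the HMG-box gene, was at 5.85 and 6.25 with TGFbeta and 5.80 and 6.26 untreated on the Major arrays of numbers 1 and 2. On Control arrays it was at 6.29 and 6.86 with TGFbeta and at 6.24 and 6.99 untreated. The lines overlapped over all 8 arrays, because number 2 was higher than number 1 in both, but not within a number. Means were 6.04 ± 0.25 in Major and 6.59 ± 0.39 in Control cells, a difference of -0.55, the smallest among the genes with a single probeset.

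Both genes of the ubiquitin system were lower in Major cells. Spopfm2 (10499979) was at 7.63 and 7.64 on the Major arrays with TGFbeta and at 7.75 and 7.53 on the untreated Major arrays, against 9.22 and 9.89 on Control arrays with TGFbeta and 9.12 and 9.50 on untreated Control arrays. The Major arrays lay within a narrow band well under all Control arrays. Spopfm2 averaged 7.64 ± 0.09 in Major and 9.43 ± 0.35 in Control cells, a difference of -1.79 (3.46-fold lower). The probeset of Usp17ld alone (10566205) was at 6.82 and 7.73 with TGFbeta and 6.86 and 7.92 untreated on Major arrays, against 7.81 and 8.77 with TGFbeta and 7.47 and 8.84 untreated on Control arrays. Major arrays of number 2 overlapped Control arrays of number 1, so the line difference of -0.89 was seen within numbers only. The probeset that Usp17ld shares with Usp17la, Usp17lc and Usp17le (10566387) was at 7.45 and 7.28 with TGFbeta and 7.71 and 7.77 untreated on Major arrays, against 8.92 and 9.55 with TGFbeta and 8.97 and 9.85 untreated on Control arrays. There the lines did not overlap, with a difference of -1.77, and the signal cannot be given to 1 copy of the family. The Usp17ld promoter matched that of Usp17lc at 89.7% of 300 aligned positions, that of Usp17la at 75.7% and that of Usp17lb at 68.3%.

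Pramel20 had 3 probesets, of which 1 lists it alone. That probeset (10510081) was at 6.54 and 6.94 with TGFbeta and 6.49 and 7.18 untreated on Major arrays, against 7.98 and 8.52 with TGFbeta and 7.74 and 9.08 untreated on Control arrays. The lines did not overlap, and the difference of their means was -1.54 (2.91-fold lower in Major). The other 2 probesets also list Pramel31, Pramel16, Gm13057, Gm13040 and Gm13043, and they showed larger differences. Probeset 10510076 averaged 6.63 ± 0.45 in Major and 9.54 ± 0.59 in Control cells, a difference of -2.91, and 10510112 averaged 6.88 ± 0.12 in Major and 9.35 ± 0.57 in Control cells, a difference of -2.47.

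Tmem92 (10390080) was at 6.30 and 6.58 with TGFbeta and 6.29 and 6.35 untreated on Major arrays, against 7.44 and 7.85 with TGFbeta and 7.30 and 7.73 untreated on Control arrays. Tmem92 thus separated the lines without overlap, with means of 6.38 ± 0.14 in Major and 7.58 ± 0.26 in Control cells, a difference of -1.20 (2.30-fold lower). Tcstv3 (10598146) was at 5.42 and 5.14 with TGFbeta and 5.46 and 5.58 untreated on Major arrays, against 6.04 and 5.98 with TGFbeta and 6.017 and 6.005 untreated on Control arrays. Here the Control arrays hardly varied, and all Major arrays lay below them by a small margin. The difference was -0.61 (1.53-fold lower), from 5.40 ± 0.19 in Major and 6.01 ± 0.02 in Control cells.

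Gm7982 was listed alone for 7 probesets, whose differences ran from -2.87 to -0.30. The largest was at 10522585, with 6.85 and 6.38 with TGFbeta and 7.11 and 6.66 untreated on Major arrays, against 9.24 and 9.53 with TGFbeta and 9.54 and 10.17 untreated on Control arrays. That is 7.30-fold lower in Major cells, with no overlap. Probesets 10536151 (-2.76), 10536163 (-2.50) and 10536143 (-2.30) were next, followed by 10536006 (-1.29) and 10536103 (-1.16). At 10536118 the difference was only -0.30, with 6.36 and 6.89 with TGFbeta and 6.50 and 6.65 untreated on Major arrays, against 6.58 and 7.39 with TGFbeta and 6.69 and 6.96 untreated on Control arrays. The 7 probesets named for this predicted gene therefore did not measure 1 common difference, and which transcripts each detects was not determined.

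**Figure D2:**
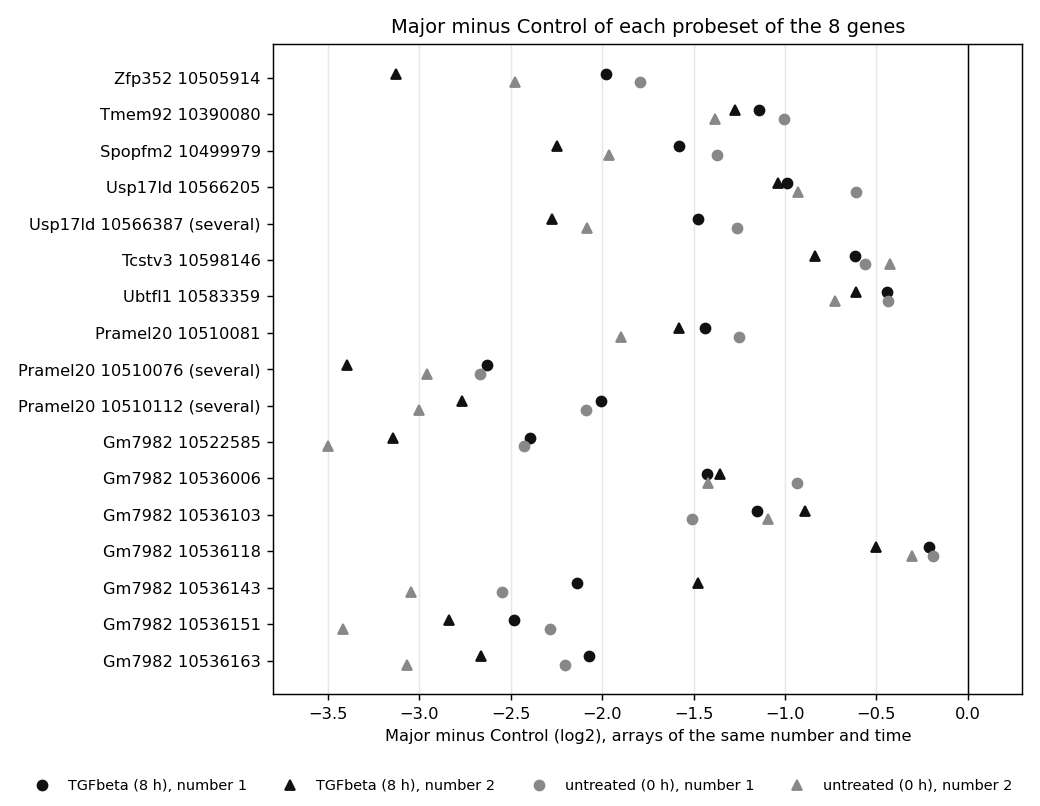
Major minus Control on the log2 scale (horizontal axis) for each probeset of the 8 genes (rows), from arrays of the same time and replicate number, with black marks for 8 h of TGFbeta, grey for untreated, circles for number 1 and triangles for number 2. All marks lie left of 0, and in 15 of 17 rows the mean of the triangles lies further left than that of the circles.

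The size of the difference was not the same in both replicate numbers. It was larger in number 2 for 15 of 17 probesets, and larger after 8 h of TGFbeta than untreated for 9 of 17. For Zfp352 it was -2.80 in number 2 and -1.89 in number 1, and for Spopfm2 -2.11 in number 2 and -1.48 in number 1. The exceptions were 2 probesets of Gm7982, 10536103 and 10536143. The number shift lay mainly on the Control side. From number 1 to number 2 the probesets of the 8 genes shifted by a median of 0.17 on Major arrays and 0.56 on Control arrays, and the shift was more positive on Control arrays for 15 of 17 (88.2%), which is the same count seen from the side of the arrays. Over all probesets the medians were -0.01 on Major and -0.02 on Control arrays, and 52.9% had the more positive shift on Control arrays. What the number stands for was not given, and its part in these differences was not tested.

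The change over 8 h of TGFbeta was not used to choose the genes and was tested with limma over all 34760 probesets. None of the 17 probesets passed in the mean change of both lines, for which 462 probesets (1.33%) passed over the array. At an unadjusted p under 0.05 there were also 0 of 17, against 3341 of 34760 over the array. With the replicate number in the model again 0 of 17 passed, while 4222 probesets (12.1%) passed over the array. Unadjusted p-values under 0.05 in that model were seen for 0 of 17, against 9000 of 34760 over the array. Zfp352 changed by -0.29 ± 0.46 (SE, 95% interval -1.44 to 0.86, limma adjusted p = 1), Tmem92 by 0.12 ± 0.16 (interval -0.26 to 0.51) and Spopfm2 by 0.12 ± 0.18 (interval -0.33 to 0.57). Usp17ld differed by 0.01 ± 0.46, Tcstv3 by -0.12 ± 0.09, Ubtfl1 by -0.01 ± 0.25 and Pramel20, at its own probeset, by -0.13 ± 0.35. The furthest from 0 was Gm7982 at 10522585, with -0.37 ± 0.21 (adjusted p = 0.805, and 0.318 with the replicate number in the model). In all, 5 probesets were above 0 and 12 below it, with a median of -0.12, against 0.01 over all probesets. Of the 17 probesets, 7 belong to Gm7982, so these counts are not of separate genes. Among the 14 with 1 symbol the median was -0.02.

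These intervals limit what the TGFbeta test can show. Their half-widths ran from 0.23 to 1.33 on the log2 scale, and from 0.19 to 0.51 with the replicate number in the model. For Tmem92 the interval with the number was -0.08 to 0.32, for Ubtfl1 -0.20 to 0.18, and for Zfp352 -0.80 to 0.22. A change of Zfp352 of the size of its line difference lay outside both of its intervals, whereas changes within them could not be told from 0.

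**Figure D3:**
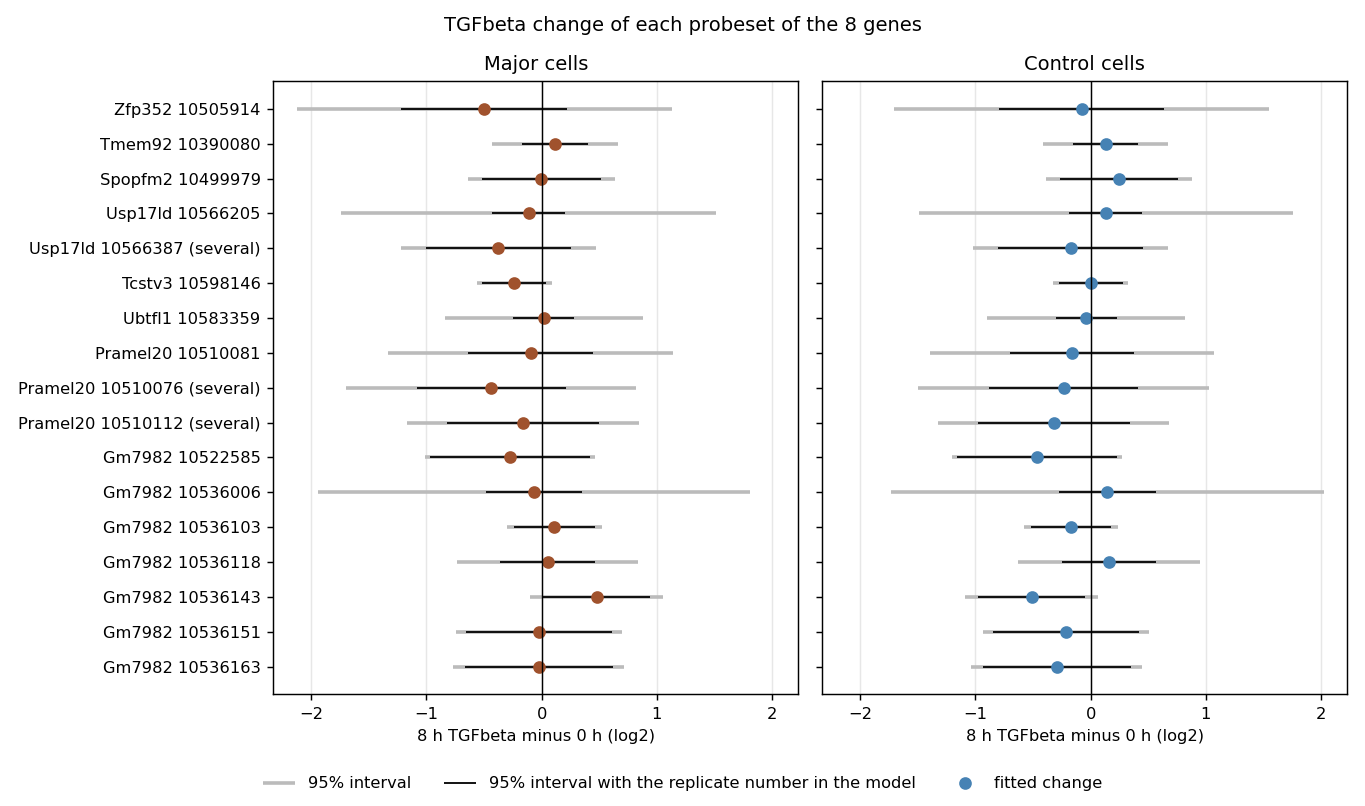
TGFbeta change (8 h minus 0 h, log2, horizontal axis) of each probeset of the 8 genes (rows), in Major cells (left) and Control cells (right). Points are the fitted changes from 2 arrays per group, grey bars the 95% intervals without and black bars those with the replicate number in the model. Every grey bar includes 0, and the black bars of Gm7982 at 10536143 lie above 0 in Major and below 0 in Control cells.

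The difference between the TGFbeta changes of the lines (Major minus Control) was called for 0 of 17 probesets and for 0 of 34760 over the array (0%). An unadjusted p under 0.05 was seen for 1 of 17, against 155 of 34760 over the array. That 1 was Gm7982 at 10536143. It was at 7.19 and 7.79 with TGFbeta and 7.08 and 6.94 untreated on Major arrays, and at 9.33 and 9.27 with TGFbeta and 9.63 and 9.99 untreated on Control arrays. The Major arrays with TGFbeta were thus higher and the Control arrays with TGFbeta lower than the untreated ones in both numbers, and the difference of 0.99 ± 0.33 did not pass (limma adjusted p = 1). The other 6 probesets of Gm7982 had unadjusted p-values above 0.05.

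Genes related to the 8, and other genes of the 2-cell stage, were read from lists drawn up with earlier results known. For these genes Major minus Control was tested. Over the whole array 3 probesets were lower in Major and 0 higher (0.00863% lower; 0 to 2 in all when 1 array was left out), and with the replicate number in the model 33 were lower (0.0949%) and 0 higher (0%). Of the 3 that passed without the number, 0 were probesets of the 8 genes and 0 were on the lists. They were Kcnma1 (10582545, -7.134) and 2 probesets without a gene symbol, 10582549 (-6.387) and 10456984 (-2.998). All 3 were also among the 33. Of the 33, 11 were probesets of the 8 genes, which the choice itself brings in. A further 3 belonged to the list of other 2-cell stage genes, and 11 had no gene symbol. The other 8 lay outside the lists; 3 of them are Pramel probesets described with the paralogues. One probeset shared by Zscan4a, Zscan4b, Zscan4c, Zscan4d and Zscan4f (10559978), telomere-associated genes of the 2-cell stage, was at 8.44 and 8.02 with TGFbeta and 8.73 and 8.63 untreated on Major arrays, against 10.85 and 11.48 with TGFbeta and 10.91 and 11.78 untreated on Control arrays. The lines were well apart, with a difference of -2.80 ± 0.25 (limma adjusted p = 0.149, and 0.0259 with the replicate number in the model). The other Zscan4 probesets, 10549972 (-1.94) and 10549964 (-1.72), did not pass in either model. The other 2 of the list among the 33 were a probeset of the Gm4340 family (10366180, -2.29 ± 0.21, adjusted p = 0.155, and 0.0268 with the number) and one shared by Gm4027 and BB287469 (10397551, -2.26, adjusted p = 1, and 0.000736 with the number).

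The other 2-cell stage genes were measured mostly by probesets shared within a family. Among 21 probesets that list several symbols the median difference was -0.69, and 0 passed (3 lower with the replicate number). Of the 21, 8 were at -1 or less, against 0.181% of all probesets. All 4 Major arrays were below all 4 Control arrays for 15, against 0.572% of all probesets. Several of the 21 list the same symbols, so these counts are not of separate genes. Averaged over these probesets, the level was 7.31 to 7.41 on Major arrays and 8.13 to 8.62 on Control arrays. Among 12 probesets with 1 symbol the median was -0.05, 2 were at -1 or less and 0 passed in either model. Those 2 were Gm5662 (-2.69, adjusted p = 1) and AF067061 (-1.12, adjusted p = 1). The 4 probesets shared by Obox1, Obox2, Obox3, Obox5 and Obox7, homeobox factors of the early embryo, disagreed. They were at -1.11 (10560160), -0.69 (10560153), -0.045 (10550197) and -0.038 (10550202), and none passed (adjusted p = 1 for each, and 0.11, 0.119, 0.992 and 0.966 with the replicate number). Obox5 alone was at -0.30, Obox7 at -0.37 and the 2 Obox6 probesets at 0.008 and 0. The probeset shared by Duxf3, a copy of Dux, and Gm9919 (10369225) was at 8.11 and 8.01 with TGFbeta and 8.09 and 7.78 untreated on Major arrays, against 8.35 and 8.19 with TGFbeta and 8.39 and 8.09 untreated on Control arrays. It was lower in Major in all 4 pairs, with a difference of -0.26 that did not pass (adjusted p = 1, and 0.858 with the replicate number).

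Paralogues of the 8 genes were mixed. Their 24 probesets with 1 symbol, from 23 of 46 listed genes, had a median difference of -0.11, with 5 at -1 or less and 0 passing in either model. For 8 of the 24, all 4 Major arrays were below all 4 Control arrays. Over all probesets 0.181% were at -1 or less and 0.572% had no such overlap. Usp17lc was at -1.65 ± 0.31, Usp17lb at -1.14 ± 0.19 and Usp17la at -0.82 ± 0.16 (adjusted p = 1 for each, and 0.132, 0.319 and 0.42 with the number). Tdpoz3, of the Spop-like Tdpoz family, was at -1.58, Pramel19 at -1.62 and Zfp353-ps (10578387) at -1.13. A probeset shared by Tdpoz1, Tdpoz5, Tdpoz7 and Tdpoz9 (10499977) was at -1.53 ± 0.20 (adjusted p = 0.483, and 0.0944 with the number). A further probeset with the same 4 symbols (10499975) was at -0.15, and that of Tdpoz1 alone (10499963) at 0.01. The 14 listed paralogue probesets with several symbols had a median of -0.14, with 2 at -1 or less and 0 passing. Those 2 were 10499977 and 10494001, which is shared by Tdpoz4 and Tdpoz8 (-1.65, limma adjusted p = 0.273 with the number). For 3 of the 14, all 4 Major arrays were below all 4 Control arrays. The list did not hold every gene of the Pramel family: 3 Pramel probesets outside it were among the 33 lower with the replicate number in the model, and none of them passed without it. They were 10536136, shared by Pramel37, Pramel39, Pramel50 and BC080696 (-2.17, adjusted p = 0.0241 with the number and 0.149 without), and 2 probesets shared by Pramel38, Pramel42, Pramel48 and other loci, 10536159 (-2.01, 0.0241 with and 0.494 without) and 10536155 (-1.29, 0.0101 with and 0.964 without). These 3 were named after their values were seen.

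For the listed regulators of the 2-cell programme, which do not include Dux itself, the differences between the lines were close to 0. The 50 probesets of 37 regulators, among them Dppa2, Dppa4, Trim28 and the assembly factor genes Chaf1a and Chaf1b, ran from -0.19 to 0.22 with a median of 0.01, and 0 passed in either direction. Dppa4, an activator of Dux, had the smallest p, at -0.17 ± 0.10 (10436050, adjusted p = 1), and its other probeset (10486954) was at 0.02. Pluripotency genes had a median of -0.02 over 21 probesets, and germline genes one of 0.01 over 31, again with 0 passing. Epithelial markers had a median of -0.002 over 12 probesets, and the markers of fibroblasts, endothelium and immune cells one of 0.01 over 11. Averaged over its probesets, the fibroblast, endothelial and immune list was at 7.38 to 7.81 on Major arrays and 7.35 to 7.76 on Control arrays, and the epithelial list at 9.58 to 9.93 on Major and 9.50 to 9.89 on Control arrays.

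**Figure D4:**
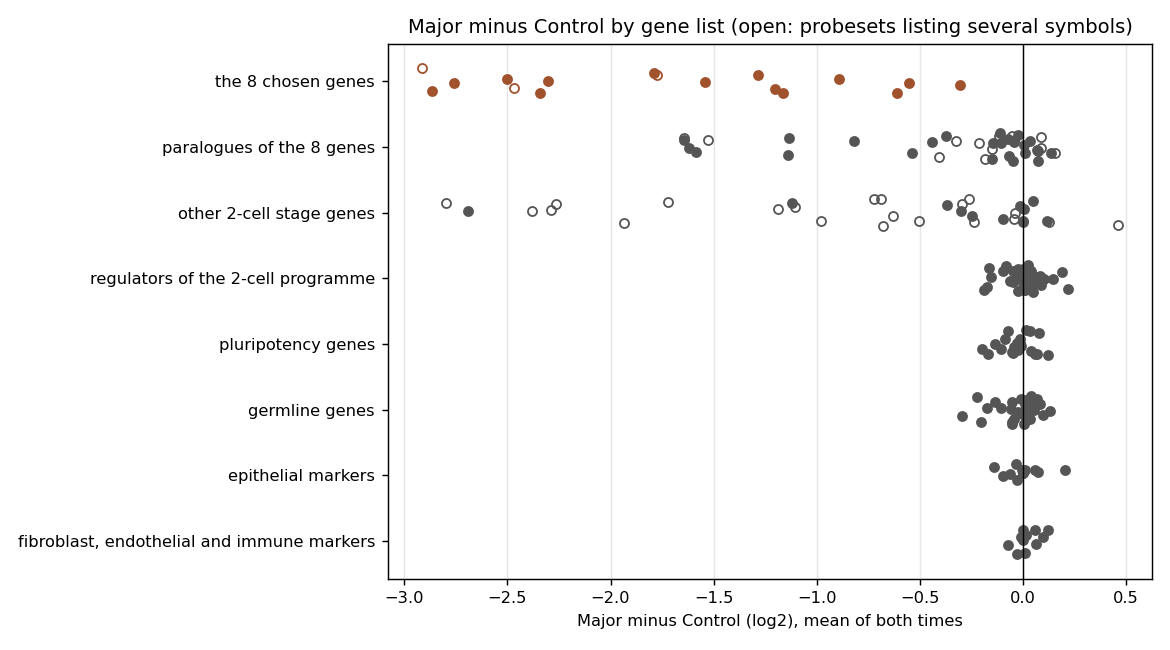
Major minus Control (log2, averaged over both times) of every probeset (points) in the 8 genes and the related lists (rows), filled for 1 gene symbol and open for several. Probesets of the 8 genes, chosen for being lower, lie from -2.91 to -0.30; the regulators lie between -0.19 and 0.22.

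Under TGFbeta, 0 paralogue probesets and 0 probesets of other 2-cell stage genes passed. With the replicate number in the model 1 of the second list rose (Nelfa, a subunit of the elongation regulator NELF, 0.31, adjusted p = 0.0174, against 0.704 without). Among the regulators 0 passed without the number, whereas 1 of 50 probesets rose and 13 fell with it, against 5.35% higher and 6.8% lower over all probesets, and their median change was -0.18. Several regulators have more than 1 probeset, so these counts are not of separate genes. The demethylase gene Kdm1a rose (0.48, adjusted p = 0.0169 with the number and 0.112 without). The remodeller gene Hells fell (-1.07, adjusted p = 0.00106 with the number and 0.301 without). Of 6 probesets of Cbx3, a heterochromatin protein gene, 10405888 was at -1.24 (adjusted p = 0.0372 with the number and 0.201 without), although in Control number 1 it was at 5.73 with TGFbeta and 5.43 untreated. The other 5 Cbx3 probesets had differences of -0.31 to -0.22. The claudin gene Cldn4 rose by 2.26 ± 0.10 (adjusted p = 0.00813), as 1 of 12 epithelial markers, and the pluripotency-list genes Klf5 (-0.83, adjusted p = 0.018) and Tfcp2l1 (-1.04, adjusted p = 0.0378) fell. With the number in the model 2 of the 12 epithelial markers rose, Cldn4 and Krt7 (0.815), and 1 fell. The 1 that fell was Krt19 (-0.74, limma adjusted p = 0.00163 with the number and 0.0583 without). In that model 3 of 21 pluripotency probesets fell and 0 rose. Of 11 fibroblast, endothelial and immune probesets, 4 rose and 0 fell with the number. With any 1 array left out, 0 or 1 probesets passed over the whole array without the number.

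The probesets most like the 8 genes were sought by the root mean square distance over the 8 arrays from the mean profile of their 14 probesets with 1 symbol, after each value was taken relative to its probeset's mean within a number. The 5 nearest were A530040E14Rik (10582877, distance 0.11), Pramel19 (0.165), Tdpoz3 (0.168), Usp17lc (0.186) and a further probeset of A530040E14Rik (10347921, 0.217). A530040E14Rik at 10582877 was at 6.44 and 6.83 with TGFbeta and 6.63 and 6.77 untreated on Major arrays, against 7.67 and 8.34 with TGFbeta and 7.73 and 8.46 untreated on Control arrays. Its difference was -1.38, without overlap of the lines. These probesets were picked for their likeness, so their differences are a description. Of the 14 probesets behind the mean profile, 7 belong to Gm7982.

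For most of the genes counted as neighbours of the 8 on the chromosomes the difference was small. Taking up to 3 measured genes on each side in RefSeq order, a step chosen after the values were seen, 45 neighbours had a median Major minus Control of -0.003, and 40 lay within 0.5 of 0. Neighbours of Zfp352 (Cdkn2a, Cdkn2b, Dmrta1, Elavl2, Izumo3 and Tusc1) lay between -0.11 and 0.11. The olfactory receptor genes on both sides of Usp17ld lay between -0.003 and 0.085. Pramel20 is flanked by other genes of its own family, of which Pramel1, Pramel12, Pramel23, Pramel25 and Pramel27 lay between -0.07 and 0.08. The 3 neighbours at -1 or less were Tdpoz3 beside Spopfm2 (-1.58), and AF067061 (-1.12) and BC147527 (-1.05) beside Tcstv3. The neighbours did not include the shared Tdpoz probesets 10494001 (-1.65), 10499977 (-1.53) and 10499975 (-0.15). Also left out were probesets 10510076 (-2.91) and 10510112 (-2.47), which Pramel20 shares with Pramel31 and Pramel16. The count of neighbours therefore does not cover every family member near the 8 genes.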

How the data were processed

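Per the labels, total RNA of NMuMG cells was amplified, labelled with biotin and hybridised to 8 Affymetrix arrays. The deposited table held log2 values per probeset on the scale of RMA. RMA and limma are named per the submitters' processing notes, without versions. Values ran from 2.98 to 14.75; 0 were missing, and 0 pairs of arrays were identical. All 8 columns matched 1 sample each. The number of arrays limits the precision.

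Gene symbols came from the platform's probe table and were updated through Entrez identifiers (21640 had 1 symbol, 1321 several, 11799 none). Models were fitted to these log2 values with limma (3.58.1, R 4.3.3), with a mean for each of the 4 groups and 4 residual degrees of freedom (3 with the replicate number in the model). Tests were two-sided, adjusted by Benjamini-Hochberg over all 34760 probesets, and a probeset passed at an adjusted p under 0.05. The 5 comparisons were the TGFbeta change in Major, in Control and in their mean, its difference between the lines, and Major minus Control (tested for genes outside the 8 only). The 8 genes and the 7 lists were chosen with earlier results of these data known. All probesets of the 8 genes are named, also those with several symbols, with up to 4 probesets of each list with the smallest p, the 5 nearest probesets and genes named in passing after their values were seen. The codes of the titles pair the arrays: deviations from the group means correlated at r = 0.829 to 0.893 across probesets between arrays of the same number. In data simulated for the TGFbeta mean over 34760 probesets, 50 of 100 changes of 1 and 74 of 100 changes of 2 (log2) were found, with 8 false calls. The simulated noise was drawn separately for each array, without the link between arrays of the same number. These counts therefore hold for that setting and not for the fit on the real arrays. Alternatives were median centring, quantile normalization, the replicate number as a block, 1 probeset per gene, brighter probesets only, an intensity trend, and leaving out each array. Promoters came from RefSeq's annotation of GRCm38.p6, and the build behind the probe annotation was not stated. The satellite transcript was not analysed here.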

Additional observations from a re-analysis of the deposited data

Results flagged for a closer look

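Gm7982 at probeset 10536143 moved in opposite directions in the 2 lines under TGFbeta. The change was 0.11 and 0.84 in numbers 1 and 2 of Major cells, and -0.30 and -0.72 in numbers 1 and 2 of Control cells. The difference between the changes was 0.99 ± 0.33 (log2, SE; limma unadjusted p = 0.025, adjusted p = 1). It was the only probeset of the 8 genes past an unadjusted p of 0.05 in this comparison, and the other 6 probesets of Gm7982 were not.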

How the results depend on the processing

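Over the array, the 462 probesets changed by TGFbeta in the mean of both lines became 227 with each array centred on its median, 295 after quantile normalization, 962 genes with 1 probeset per gene and 4222 with the replicate number as a block, and 0 to 1 when any 1 array was left out. The TGFbeta change in Major cells called 0 probesets, but 218 with 1 probeset per gene, 50 with only probesets above the median mean and 1799 with the block. In Control cells it called 0, and 214, 99 and 1550 under the same settings. Major minus Control called 3 probesets, 5 after centring, 5 among brighter probesets, 33 with the block, and 0 to 2 without 1 array (0 without any Control array or either Major array with TGFbeta). The causes were not tested, beyond fewer tests or fewer arrays. The difference between the TGFbeta changes called 0 under every setting run.

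For the 17 probesets of the 8 genes, no TGFbeta change passed in any of 222 recomputed values (smallest adjusted p 0.318), and in 29 of them, each with an array left out, a value that had not passed changed sign. Major minus Control stayed below 0 in all 170 recomputed values, between -3.21 and -0.10. The genes were chosen for this difference on the same arrays, so that sign was largely set by the choice and carries no test. Usp17ld at its own probeset was at -1.23 without the untreated Control array of number 1 and at -0.55 without that of number 2, and Gm7982 at 10536118 was at -0.51 and -0.10 without the Control arrays with TGFbeta of numbers 1 and 2. The fits with an array left out did not hold the replicate number, so the numbers were then unequally represented in the groups. In matched pairs Usp17ld at its own probeset ran from -1.04 to -0.61. How much of these shifts, or of the sign changes, came from the number was not tested.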
